A study of Homo sapiens with 6 samples.

Results

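The genes of interferon signaling, and the genes that interferons are known to switch on, were examined in RNA-Seq counts of MOLM14, an established human AML cell line whose genotype is given as FLT3 ITD. A list of 50 names was matched to the symbols of the deposited table. OASL was not matched, and DDX58 and RIGI are 2 names of 1 gene, so that 48 of the 13244 genes in the table were members. The list was drawn up by function: 14 signaling parts (receptors, kinases and transcription factors), 7 sensors and adaptors, and 27 effectors. It was chosen with earlier results of these data known. All 48 members were among the 13084 genes tested after the filter on low counts, IFI44L only through its counts in the HSN748-treated cells.

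Cells were grown in RPMI with 10% FBS and received either 2 nM HSN748 or DMSO, the solvent control, with RNA taken after 24 hours. Each group had 3 libraries, DMSO replicates 1, 2 and 3 and HSN748 replicates 7, 8 and 9, described as independent cultures. All 6 came from the same cell line and so carried the same FLT3 ITD background. HSN748 is an alkynyl nicotinamide compound tested against drug-resistant leukemia. No culture received an interferon, and interferon protein was not measured. Total counts ranged from 35277785 to 59279430 per library, and the biological coefficient of variation over all genes was 11.2%. All 10 myeloid markers were in the table, with a summed level of 1862 to 1914 CPM (counts relative to the library total, scaled by TMM factors) with DMSO and 3672 to 3811 CPM with HSN748. Of these, 7 rose, MPO fell (-2.26 on the log2 scale), and CD33 and HOXA9 did not pass. Most of the sum with HSN748 was LYZ and FLT3. Their means were 752 and 396 CPM with DMSO and 1267 and 1150 CPM with HSN748. Of the erythroid markers 0 of 5 were in the table, and of the T and NK cell markers 2 of 8, CD4 and NKG7, which summed to 74.4 to 87.7 CPM with DMSO and 149 to 185 CPM with HSN748. Of the B cell markers CD79A and PAX5 were in the table, with sums of 50.9 to 54.7 CPM and 14.6 to 18.7 CPM. Most of that sum was PAX5, which fell (-1.69 on the log2 scale), while CD79A rose by 1.35. Of the epithelial and stromal markers 4 of 9 were (KRT8, KRT18, COL1A1 and PECAM1), with sums of 217 to 219 CPM and 599 to 665 CPM. Nearly all of these sums was PECAM1, with means of 211 CPM with DMSO and 615 CPM with HSN748. KRT18 came next, at 5.59 and 5.82 CPM. The part of these shifts in the results below was not tested.

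Interferons are secreted proteins that bind receptors at the cell surface. Type I interferons bind IFNAR1 with IFNAR2, and type II interferon binds IFNGR1 with IFNGR2. The receptors carry the Janus kinases JAK1, JAK2 and TYK2, which phosphorylate STAT proteins. STAT2 and IRF9 are subunits of ISGF3, the factor that binds the interferon-stimulated response element (ISRE) in the promoters of many antiviral genes, while the type II response acts mainly through the gamma-activated site (GAS). Sensors of foreign or misplaced RNA and DNA, such as RIG-I and cGAS, start interferon production through the adaptors MAVS and STING. Many signaling parts and sensors are themselves interferon-stimulated, and the effectors include enzymes that degrade or modify RNA, proteins that block viral replication and the ubiquitin-like modifier ISG15.

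RefSeq promoter windows of GRCh38.p14, from 250 bases before to 50 after a gene's start, were matched by symbol for 36 of the 48 members. No window was matched for IFNAR2, IRF2, IRF3, IRF7, DHX58, CGAS, STING1, OAS2, MX2, IFIT2, USP18 and TRIM22. The match counts leave these members out. The ISRE core was searched as GAAANNGAAA and the GAS core as TTCNNNGAA, on both strands and with overlapping matches counted. An ISRE match in any window of the gene was present for 17 of these 36 members (47.2%). The same share was 4.13% of 9917 tested genes and 4.38% of all 27305 genes with a window. Genes can have more than 1 window: the 36 members had 57, and all genes 35116, of which 3.57% held a match. By function, 16 of 22 effectors held a match, as did 1 of 4 sensors and adaptors, IFIH1, and 0 of 10 signaling parts. A GAS match was present for 8 of 36 members (22.2%), beside 8.50% of tested genes; the 2 signaling parts among them were IRF1 and IRF9. These are matches of letters, and binding was not measured.

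The stretches around the ISRE matches of 9 members are given 5′ to 3′ on the gene's strand, with the matches in capitals. They were chosen to set promoters with the same letters beside the different responses described below: ISG20, IFI6, IFIT1 and PARP9 rose with HSN748, BST2 fell, and ISG15, MX1, EIF2AK2 and DTX3L did not pass the test.
ISG20, chr15:88638927-88638976, plus strand: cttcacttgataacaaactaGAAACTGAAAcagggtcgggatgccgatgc
IFI6, chr1:27672256-27672368, minus strand: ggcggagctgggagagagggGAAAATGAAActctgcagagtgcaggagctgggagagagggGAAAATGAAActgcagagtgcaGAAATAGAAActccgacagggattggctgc
IFIT1, chr10:89392487-89392549, plus strand: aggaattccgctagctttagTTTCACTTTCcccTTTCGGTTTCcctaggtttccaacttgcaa
ISG15, chr1:1013364-1013419, plus strand: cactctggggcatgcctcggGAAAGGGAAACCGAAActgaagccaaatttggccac
MX1, chr21:41431834-41431883, plus strand: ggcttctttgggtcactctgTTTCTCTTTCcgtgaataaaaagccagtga
EIF2AK2, chr2:37156957-37157006, minus strand: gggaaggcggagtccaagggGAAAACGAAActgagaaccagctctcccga
BST2, chr19:17405725-17405780, minus strand: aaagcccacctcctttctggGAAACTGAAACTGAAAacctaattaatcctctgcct
PARP9, chr3:122564312-122564361, minus strand: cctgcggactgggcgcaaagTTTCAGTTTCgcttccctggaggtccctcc
DTX3L, chr3:122564312-122564361, plus strand: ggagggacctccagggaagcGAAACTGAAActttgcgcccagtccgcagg
IFI6 held 3 matches, IFIT1 2, and ISG15 and BST2 2 that overlap. PARP9 and DTX3L, which are transcribed in opposite directions, share the same match, read on opposite strands. Where the capitals begin with TTTC, the core lies on the other strand. MX1 had 2 windows, each with a match, and the stretch of the downstream start is given. The deposited positions of MX1 begin at the upstream start (chr21:41420558), whose stretch is not printed.

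Higher levels with HSN748 were the more frequent change among the members. Of the 48 members, 31 rose at an adjusted p under 0.05 (edgeR's quasi-likelihood test, two-sided, Benjamini-Hochberg adjustment over all 13084 genes), beside 36.6% of all genes tested, and 4 fell, beside 36.5% of all genes. The other 13 did not pass. With a log2 fold change beyond 1 as well, 16 members were called higher, beside 17.0% of all genes, and 1, USP18, was called lower, beside 14.9%. The median log2 fold change was 0.67 over the members and 0.01 over all genes. These values describe a list that was chosen with earlier results of these data known. The 3 values of the groups did not overlap in 40 members, 36 of which were higher with HSN748, beside 38.3% of all genes, and 4 lower, beside 37.1%. With 3 libraries against 3, the smallest exact two-sided permutation p for a single gene is 0.1, so the model's p-values were used. Since these are bulk samples, a change in the share of cells that express a gene and a change in the RNA per cell cannot be told apart.

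**Figure D1:**
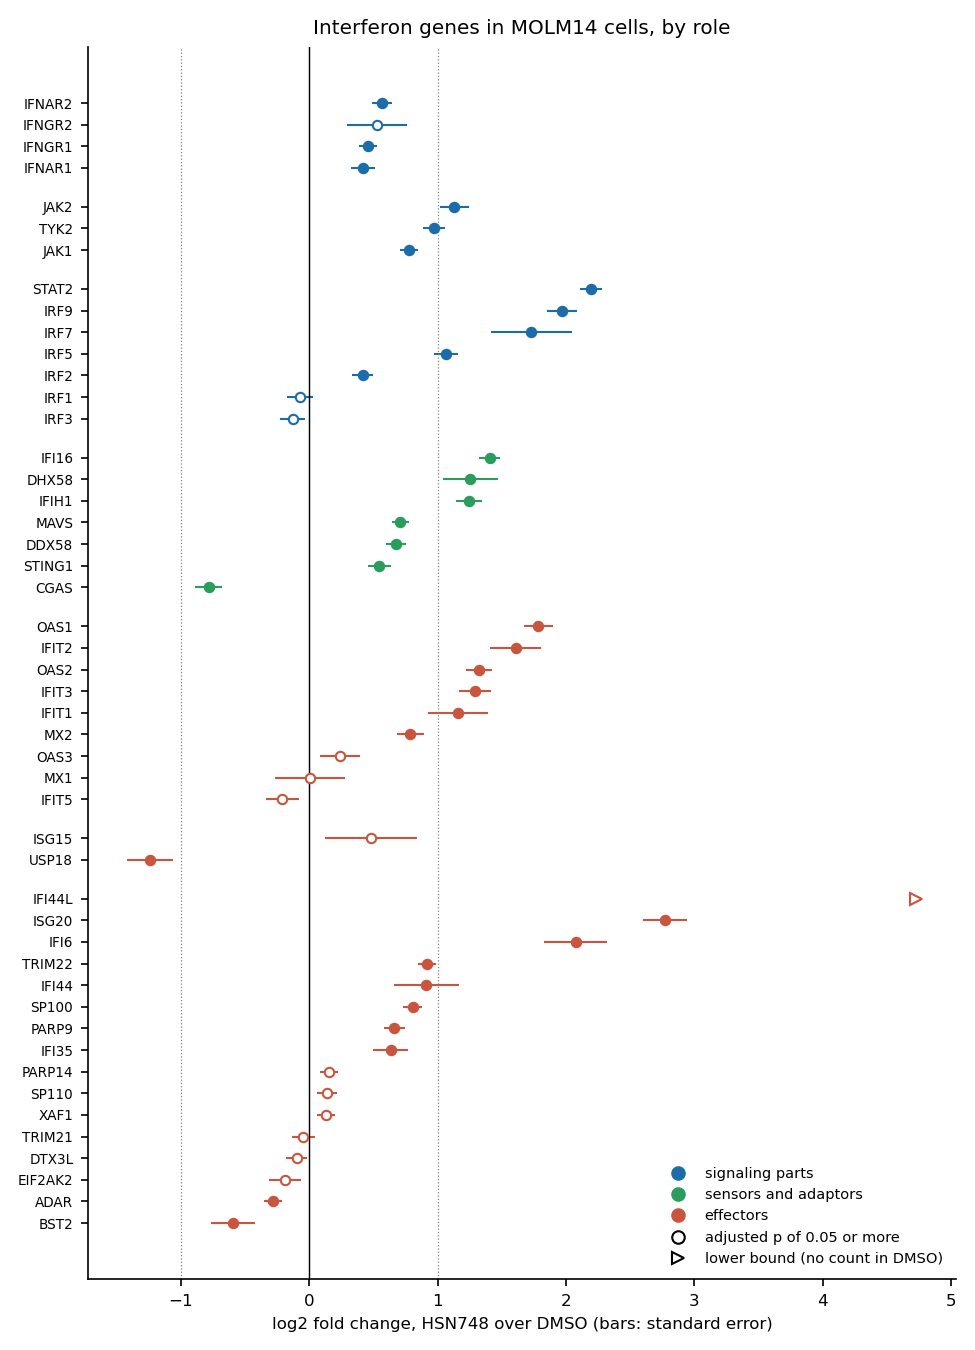
Log2 fold change (HSN748 minus DMSO) of each of the 48 members, grouped by role, with bars of 1 standard error; filled points passed at an adjusted p under 0.05 and open points did not. IFI44L, at 0 counts in DMSO, is drawn as a lower bound. STAT2 and IRF9 lie at 2.20 and 1.97, ISG20 at 2.77, and USP18 at -1.24.

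By role, the signaling parts held no member that fell. Of the 14 signaling parts 11 rose and 0 fell, with a median log2 fold change of 0.67 and a range from -0.13 to 2.20. Of the 27 effectors 14 rose, 3 fell and 10 did not pass, with a median of 0.63. Of the 7 sensors and adaptors 6 rose and 1 fell, with a median of 0.71. These medians lie close together, and no test was made between the roles. The distributions are drawn beside that of all genes.

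**Figure D2:**
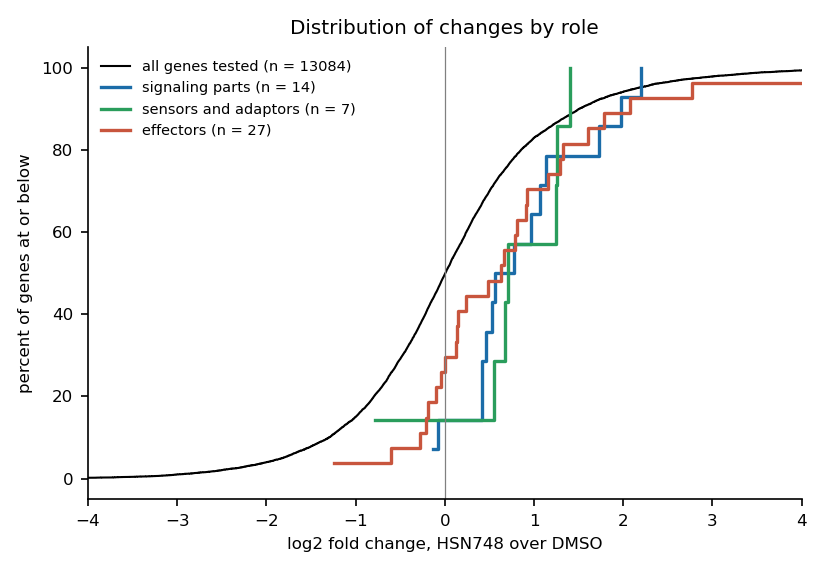
Cumulative share of genes (vertical axis) by log2 fold change, HSN748 minus DMSO (horizontal axis, limited to -4 to 4), for signaling parts, sensors and adaptors, effectors and all 13084 genes. The 3 member curves lie mostly to the right of that of all genes, with medians of 0.67, 0.71 and 0.63 against 0.01.

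All 4 interferon receptor chains had higher values in each HSN748 library than in any DMSO library, with small differences. IFNAR1 and IFNAR2, the chains of the type I receptor, rose by 0.42 ± 0.09 and 0.57 ± 0.07 on the log2 scale (± SE). IFNGR1, the ligand-binding chain of the type II receptor, rose by 0.46 ± 0.07. IFNGR2, its partner, had far fewer counts, 2.24 to 4.36 CPM with DMSO and 4.62 to 5.79 CPM with HSN748, and its log2 difference of 0.53 ± 0.23 did not pass (adjusted p = 0.069). It passed in 5 of the 15 alternative analyses.

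All 3 Janus kinases rose. JAK2, which serves the type II receptor and many cytokine receptors, read 41.9, 47.8 and 34.96 CPM in DMSO replicates 1, 2 and 3 and 89.9, 94.4 and 88.9 CPM in HSN748 replicates 7, 8 and 9. Every treated culture was well above every control, and the log2 fold change was 1.13 ± 0.11 (adjusted p = 2e-05). JAK1, shared by both receptor types, rose by 0.78 ± 0.07, and TYK2, which sits on IFNAR1, by 0.97 ± 0.08. TYK2 had the highest kinase level per length, with a mean of 46.4 ± 4.69 FPKM (CPM per kilobase of the deposited gene length; SD, n = 3) with DMSO and 90.8 ± 0.777 FPKM with HSN748.

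The transcription factors held the largest increases among the signaling parts: 5 of 7 rose, 4 of these were called, and the median log2 fold change was 1.07. STAT2 (chr12:56341598-56360107 in the deposited annotation) read 54.6, 50.6 and 46.0 CPM with DMSO and 230, 244 and 218 CPM with HSN748. The means were 50.4 ± 4.26 and 231 ± 13.0 CPM (SD, n = 3), a ratio of 4.58, with a gap between the groups that exceeded the spread within either. The log2 fold change was 2.20 ± 0.09 (edgeR adjusted p = 9.4e-08). IRF9 (chr14:24161265-24166565), its DNA-binding partner in ISGF3, read 7.41, 6.21 and 5.84 CPM with DMSO and 27.5, 24.3 and 24.9 CPM with HSN748. Its mean was 3.94 times that of the controls, and its log2 fold change was 1.97 ± 0.12 (adjusted p = 8.8e-07). Both ISGF3 subunits among the members thus rose, from DMSO levels per length of 11.4 FPKM for STAT2 and 1.99 FPKM for IRF9.

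The interferon regulatory factors outside ISGF3 were mixed. IRF7, the amplifier of type I interferon production, was near the lower end of what the libraries measured, at 1.04, 0.425 and 1.30 CPM with DMSO and 3.10, 2.84 and 3.19 CPM with HSN748. The groups did not overlap, and the log2 fold change was 1.73 ± 0.32 (adjusted p = 0.001). IRF5, a myeloid regulator of inflammatory cytokine genes, read 20.5, 17.6 and 21.5 CPM with DMSO and 41.1, 40.8 and 43.0 CPM with HSN748, close to a doubling in each treated culture (log2 fold change 1.07 ± 0.10, adjusted p = 1.1e-05). IRF2, which can repress interferon-stimulated promoters, rose by 0.41 ± 0.08. IRF1, the factor most tied to the type II response, had a log2 difference of -0.07 ± 0.10 (adjusted p = 0.52). With reference genes IRF1 and IRF3 passed as higher (adjusted p = 0.0012 and 0.0036). IRF3, which is activated by phosphorylation when nucleic acid is sensed, had -0.13 ± 0.10 (adjusted p = 0.26). Without DMSO replicate 2 IRF3 passed as lower (-0.23, adjusted p = 0.021). Of its exon bases 392 (19.5%) overlap BCL2L12 on the opposite strand, and whether the counting used strand is not given in the sources used here.

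**Figure D3:**
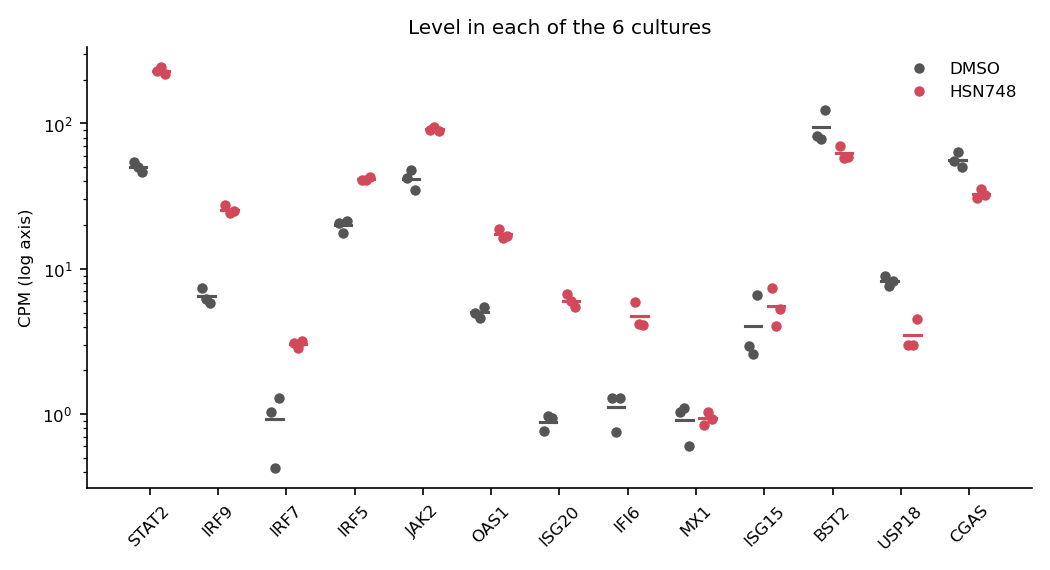
CPM on a log axis in each of the 6 cultures for 13 members, with DMSO and HSN748 cultures as separate points. STAT2, IRF9, ISG20 and OAS1 show no overlap and higher HSN748 values, USP18, CGAS and BST2 lower ones, and the ISG15 and MX1 groups overlap.

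Of the sensors and adaptors, the RNA sensors, the adaptors and the DNA-binding IFI16 rose, while the DNA sensor cGAS fell. DDX58, which encodes RIG-I, rose by 0.67 ± 0.08. IFIH1, which encodes MDA5, rose by 1.25 ± 0.10, from 8.97 to 10.4 CPM with DMSO to 21.0 to 23.7 CPM with HSN748. DHX58, which encodes LGP2, their relative without signaling domains, rose by 1.25 ± 0.21 from under 1 CPM. The adaptors MAVS and STING1 rose by 0.71 ± 0.07 and 0.55 ± 0.09. IFI16, a nuclear DNA-binding protein, rose by 1.40 ± 0.08, from 34.1 to 39.7 CPM to 94.1 to 98.6 CPM, and 9.53% of its exon bases overlap PYDC5. CGAS read 55.3, 63.2 and 50.5 CPM with DMSO and 30.7, 35.4 and 32.1 CPM with HSN748 (log2 fold change -0.78 ± 0.10, adjusted p = 0.00013). CGAS and STING1, the enzyme and the receptor of its product, therefore moved in opposite directions. CGAS did not pass when libraries were scaled by 11 reference genes (-0.24, adjusted p = 0.1), a scaling described further on.

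Of the OAS, MX and IFIT families, 9 members were in the table, of which 6 rose and 0 fell, with a median log2 fold change of 1.16. OAS1, an oligoadenylate synthetase activated by double-stranded RNA, read 4.98, 4.63 and 5.49 CPM with DMSO and 18.8, 16.3 and 16.8 CPM with HSN748 (log2 fold change 1.78 ± 0.11, adjusted p = 1.3e-06). Its paralog OAS2 rose by 1.32 ± 0.10, while OAS3, with 2.78 to 3.25 CPM against 3.27 to 4.12 CPM, had 0.24 ± 0.15 (adjusted p = 0.19) and passed as higher with upper-quartile factors (adjusted p = 0.028) and reference genes (adjusted p = 0.0017). The 3 OAS genes thus did not respond alike in size, although the differences among them were not tested.

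The IFIT genes, which bind foreign RNA ends, showed the same unevenness. IFIT1, IFIT2 and IFIT3 rose by 1.16 ± 0.23, 1.61 ± 0.20 and 1.29 ± 0.13, from levels of 0.634 to 3.11 CPM. IFIT5 had -0.21 ± 0.13 (adjusted p = 0.17), with 3 ISRE matches in its window. MX1 and MX2 are dynamin-like antiviral GTPases. MX1 read 1.04, 1.11 and 0.607 CPM with DMSO and 0.840, 1.04 and 0.929 CPM with HSN748, so the groups overlapped (log2 difference 0.00 ± 0.27, adjusted p = 0.99). MX2 rose by 0.79 ± 0.10, from 6.68 to 7.72 CPM to 12.3 to 13.0 CPM.

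Of the ISG15 system, 0 of 2 members rose and 1 fell. ISG15, a ubiquitin-like protein and a common readout of the interferon response, read 2.97, 2.60 and 6.64 CPM with DMSO and 7.42, 4.06 and 5.29 CPM with HSN748. DMSO replicate 3 lay above 2 of the 3 treated cultures, and the log2 difference of 0.48 ± 0.36 did not pass (adjusted p = 0.25). Without that replicate ISG15 passed (1.004, adjusted p = 0.0019), as it did with reference genes (1.03, adjusted p = 0.016). USP18, the protease that removes ISG15 from proteins and also damps signaling at IFNAR2, read 8.95, 7.67 and 8.30 CPM with DMSO and 2.99, 2.98 and 4.54 CPM with HSN748. The groups were clearly apart. Its mean was 2.37 times as high with DMSO as with HSN748 (log2 fold change -1.24 ± 0.18, adjusted p = 0.00024), and the decrease passed in all 15 alternatives.

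Of the 16 other effectors 8 rose, 2 fell and 6 did not pass. ISG20, an exonuclease that degrades RNA, had the largest increase among members present in both groups. It read 0.763, 0.968 and 0.937 CPM with DMSO and 6.68, 5.98 and 5.43 CPM with HSN748, a ratio of means of 6.78 (log2 fold change 2.77 ± 0.17, adjusted p = 1.1e-06). IFI6, a small membrane protein that limits apoptosis and viral replication, read 1.30, 0.755 and 1.30 CPM with DMSO and 5.88, 4.20 and 4.14 CPM with HSN748 (log2 fold change 2.08 ± 0.24, adjusted p = 6.5e-05). Both were low in the controls and had no overlap between groups. IFI44L had 0 counts in all 3 DMSO libraries and 31, 18 and 27 counts in HSN748 replicates 7, 8 and 9. Set against a chosen floor of 3 counts over the DMSO group, it was 26.6-fold higher, a bound that carries no error. The edgeR adjusted p of 0.00015 belongs to the fitted fold change and not to this bound. Because IFI44L passed the filter only through the treated group, that p is no separate support. IFI44L is included in the counts of members that rose and were called. Its level stayed low at 0.478 to 0.724 CPM. Its neighbor IFI44 rose by 0.91 ± 0.25.

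Increases in the remaining effectors were smaller. TRIM22 and SP100, a restriction factor and a nuclear body protein, rose by 0.92 ± 0.07 and 0.80 ± 0.07, IFI35 by 0.63 ± 0.13 and PARP9 by 0.66 ± 0.08. DTX3L, the ubiquitin ligase partner of PARP9, had a log2 difference of -0.10 ± 0.08 (adjusted p = 0.31), although both genes share the ISRE match printed above. Their exons overlap by 175 bases, so a few reads could have been assigned to either. PARP14, XAF1, SP110, TRIM21 and EIF2AK2, which encodes the RNA-activated kinase PKR, had log2 differences of 0.15, 0.13, 0.14, -0.05 and -0.19 and did not pass. With reference genes TRIM21, EIF2AK2 and DTX3L passed as higher (adjusted p = 0.00067, 0.049 and 0.0032). Without DMSO replicate 3 EIF2AK2 passed as lower (-0.31, adjusted p = 0.0083), and without DMSO replicate 2 PARP14 passed as higher (0.18, adjusted p = 0.037). PARP14, XAF1 and SP110 also passed as higher with total counts (adjusted p = 0.0079, 0.016 and 0.017), upper-quartile factors (0.00093, 0.0016 and 0.003) and reference genes (6.5e-05, 0.0001 and 7.8e-05), and PARP14 with a minimum of 1 CPM in 3 libraries (adjusted p = 0.026).

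The 2 effectors that fell besides USP18 were abundant. BST2, which encodes tetherin, a protein that holds budding virions at the membrane, read 81.6, 78.4 and 123 CPM with DMSO and 70.5, 57.8 and 58.8 CPM with HSN748. DMSO replicate 3 was the highest of the DMSO cultures, as it was for ISG15, and the log2 fold change was -0.60 ± 0.17 (adjusted p = 0.011). BST2 did not pass without HSN748 replicate 9 (adjusted p = 0.056) or with upper-quartile (adjusted p = 0.072) or reference gene scaling (-0.05, adjusted p = 0.77). ADAR, the adenosine deaminase that edits double-stranded RNA, had a log2 fold change of -0.28 ± 0.07 (adjusted p = 0.0059). It did not pass with upper-quartile factors (-0.07, adjusted p = 0.34) or total count scaling (-0.16, adjusted p = 0.073), and it turned to an increase with reference genes (0.26, adjusted p = 0.011).

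Levels per length placed these changes on a common scale. With DMSO the highest members were BST2 and ADAR, at 94.4 ± 25.1 and 94.0 ± 1.74 FPKM (SD, n = 3), which do not differ beyond their spread, then STING1 at 65.5 ± 7.001 FPKM and TYK2 at 46.4 FPKM. With HSN748 STING1 and TYK2, at 95.6 ± 6.08 and 90.8 FPKM, were the highest, and STAT2 moved from 11.4 ± 0.968 to 52.5 ± 2.95 FPKM. The lowest members detected with DMSO were IFIT1 at 0.136 FPKM, IRF7 at 0.229 FPKM, ISG20 at 0.237 FPKM and MX1 at 0.251 FPKM. The last 3 of these lie within their spread of each other. After treatment ISG20 reached 1.61 FPKM and OAS1 4.97 FPKM, a small part of the level of STAT2.

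**Figure D4:**
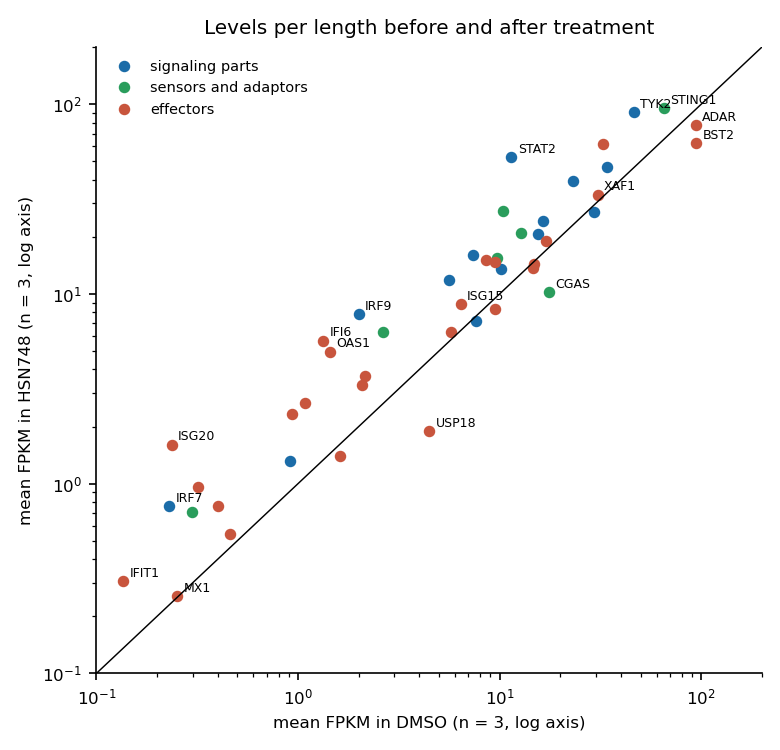
Mean FPKM (n = 3) of each member with DMSO (horizontal axis) and HSN748 (vertical axis), both on log axes, by role; the line marks equal levels. Points above the line were higher with HSN748, STAT2 at 11.4 and 52.5 FPKM among them, and IFI44L, at 0 with DMSO, is not drawn.

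The effectors were also divided by their control level. Of 15 effectors with a DMSO mean under 10 CPM, a limit chosen after the values were seen, 10 rose, 8 of them called, and 1 fell, with a median log2 fold change of 1.16. IFI44L, which passed the filter only through its counts in the treated cells, is among the 10 and among the 8. Of the 12 at or above 10 CPM 4 rose (TRIM22, SP100, IFI35 and PARP9), 0 were called higher and 2 fell, with a median of 0.13. The same division was present over all genes: 53.2% of 4244 genes under 10 CPM rose, with a median of 0.63, beside 28.7% of 8840 genes at or above it, with a median of -0.17. Of the 4244 genes 1634 were called higher and 749 fell. Of the 8840 genes 596 were called higher and 4021 fell. The DMSO values that set this division also enter the fold changes, and the part of the control level in the response was not tested.

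Members that rose were found both with and without an ISRE match. Of the 17 with an ISRE match 8 rose, 1 fell and 8 did not pass, with a median log2 fold change of 0.48. IFI44L, which passed the filter only through its counts in the treated cells, is among the 8 that rose. Of the 19 with a window but no match 14 rose, 1 fell and 4 did not pass, with a median of 0.71. The 2 groups differ in role, since 16 of the 17 were effectors and 10 of the 19 were signaling parts. STAT2, IRF9 and OAS1 were among those without a match in this window. The MX1 and ISG15 stretches printed above match the same search pattern as those of ISG20 and IFI6, with differing middle bases. Their responses were 0.00 and 0.48 against 2.77 and 2.08 on the log2 scale. The MX1 stretch is that of its downstream start, and MX1 lay near 1 CPM. ISG15 had 1.004 without DMSO replicate 3. These genes were picked for their different responses, and whether a match goes with the response was not tested.

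Other genes of the pathway were read beside the same shares of all genes, 36.6% that rose and 36.5% that fell. Of 44 further interferon-stimulated genes in the table, out of 52 listed, 22 rose (50%) and 10 fell (22.7%), with a median log2 fold change of 0.30. GBP2, a guanylate-binding protein, rose by 2.25 (adjusted p = 8.9e-08) and SLFN5, a Schlafen protein, by 2.65, while PNPT1, a mitochondrial RNA exonuclease, fell by 1.85 and TRIM14, an adaptor of the antiviral response, by 1.49. Of 15 genes of the sensing cascade 6 rose (40%) and 5 fell (33.3%), shares near those of all genes, with a median of 0.07. TRAF3, a ubiquitin ligase of that cascade, fell by 1.07 and the kinase IRAK1 by 0.81, while RNF135, a ubiquitin ligase of RIG-I, and TBKBP1, a partner of TBK1, rose by 1.01 and 1.003. Of 5 genes that clear nucleic acid 2 rose and 3 fell, with a median of -0.40. The lysosomal nuclease DNASE2 and the dNTP hydrolase SAMHD1 rose by 1.84 and 1.30, and RNASEH2A and RNASEH2B, subunits of the nuclease that removes RNA from RNA-DNA hybrids, fell by 2.26 and 0.40. Of 10 inhibitors of receptor signaling 2 rose and 4 fell, with a median of -0.11. The phosphatases PTPN11 and PTPN1 fell by 1.09 and 0.70, SOCS3, a feedback inhibitor of Janus kinases, fell by 0.81, and PTPN2 rose by 0.48.

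On the ligand side, 0 of 21 interferon genes were in the deposited table, which the authors had filtered, so their transcripts were not analysed here. IL10RB, the chain that the type III receptor shares with the interleukin-10 receptor, read 44.3, 43.5 and 45.9 CPM with DMSO and 112, 110 and 118 CPM with HSN748 (log2 fold change 1.35).

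The scaling of the libraries set the middle of all these values. Over all genes the median change on the log2 scale was 0.01 with TMM factors, 0.13 with total counts, 0.21 with upper-quartile factors and 0.55 with 11 reference genes, of which 8 fell and 1 rose with TMM factors. With the reference genes 7843 genes passed higher and 2350 lower over all genes, and 30 members were called higher. Under all 15 alternatives, each of the 31 members that rose passed in the same direction wherever it was tested; IFI44L was not tested with a minimum of 1 CPM in 3 libraries. Of the 4 that fell, this held for USP18 alone.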

How the data were processed

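RNA-Seq of MOLM14 cells treated with 2 nM HSN748 or DMSO for 24 hours was examined, with 3 cultures per group, grouped by GEO's labels. Whole-number read counts, not normalized, were deposited by the authors for 13244 genes kept by their own filter, with gene positions and lengths in bases. Of the upstream tools, bcl2fastq and STAR are named in the submitters' processing notes. The counting program, strand setting, annotation and build were not given in the sources used here. Of 12794 symbols matched to RefSeq, 9003 had the same start. Rows without a count numbered 6. The 12 columns of log values per sample, and the authors' own fold changes and p-values, were not used.

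Groups were compared with edgeR 4.0.16 (R 4.3.3; filterByExpr, 160 genes removed and 13084 kept; TMM factors from 0.946 to 1.07; quasi-likelihood F test with treatment as the only term; Benjamini-Hochberg adjustment over all genes tested). Rose and fell mean an adjusted p under 0.05; called means in addition a log2 fold change beyond 1. The SE is the size of the log2 fold change divided by the square root of F. FPKM were computed from counts and the deposited lengths. Library totals of 35277785 to 59279430 counts limit the precision of members near 1 CPM. Replicates differed beyond sampling noise, DMSO replicate 3 the most. A chi-square per gene between cultures of a group, near 1 for sampling noise alone, was averaged over genes. It was 51.9 and 89.0 between DMSO replicate 3 and DMSO replicates 1 and 2, and 22.7 to 24.7 for the other pairs. Whether the cultures were grown separately is known only from the methods, and the p-values measure the spread among them.

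The members and gene lists were chosen with earlier results of these data known. Values in every library are given, by rule, for the 4 largest increases and the largest decreases (only USP18) among called members with a mean of at least 1 CPM, for called signaling parts and for ISG15; those of IFI44L, MX1, BST2, CGAS, OAS1 and IL10RB, and ranges, were added, in part after their values were seen. Of the other lists, up to 4 genes with the smallest adjusted p are named. The fits were tested on simulated counts in which few genes changed, as many up as down. That setting is unlike these data and cannot address the choice of scaling. Alternatives, 15 in all, were DESeq2 1.42.0, limma-voom (limma 3.58.1), RLE and upper-quartile factors, total counts, 11 reference genes, no filter, a minimum of 1 CPM in 3 libraries, limma on log2(FPKM + 1), and leaving out each of the 6 libraries. Python 3.11.15, pandas 2.3.3 and matplotlib 3.10.9 served for tabulation and plots. Some genes of the pathway are not reported here.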

Additional observations from a re-analysis of the deposited data

How the results depend on the processing

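No paired analysis was possible because the groups share no replicate numbers. No count of genes moved by more than 1.5 times with DESeq2, limma-voom, RLE factors or no filter, and no median moved there by more than the median SE of its genes. With upper-quartile factors the median log2 fold change was 0.87 for all members, 0.88 for signaling parts, 0.91 for sensors and adaptors, 0.84 for effectors, 0.50 for other interferon-stimulated genes, 0.27 for the sensing cascade, -0.20 for nucleic acid clearance, 0.10 for inhibitors and 0.21 for all genes; 2 members, 1 effector, 6 other interferon-stimulated genes and 3 cascade genes fell. With total counts these medians were 0.79, 0.80, 0.83, 0.76, 0.42, 0.19, -0.28, 0.017 and 0.13, and 3 cascade genes fell. With reference genes they were 1.21, 1.21, 1.25, 1.18, 0.84, 0.61, 0.14, 0.43 and 0.55. Those called higher were then 30 members, 9 signaling parts, 6 sensors and adaptors and 15 effectors, and 0 members or effectors were called lower. Those that rose were 23 effectors, 35 other interferon-stimulated genes, 11 cascade genes and 6 inhibitors; those that fell were 1 member, 1 effector, 0 sensors, 5 other interferon-stimulated genes, 2 cascade genes, 1 clearance gene and 1 inhibitor. Over all genes 7843 passed higher and 2350 lower, of which 4109 and 959 were called. With limma on log2(FPKM + 1), which shrinks the changes of low genes by construction, 7 members, 3 signaling parts, 1 sensor, 3 effectors and 974 of all genes were called higher, 0 members or effectors were called lower, and the medians were 0.47 for members, 0.53 for signaling parts and 0.20 for effectors. With the 1 CPM minimum 6 other interferon-stimulated genes fell.

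Leaving out each library in turn gave 0 to 1 signaling parts that fell (IRF3, without DMSO replicate 2), effector medians of 0.53 to 0.76 (the highest without DMSO replicate 3), cascade medians of 0.017 to 0.17 and 3 to 5 cascade genes that fell (3 without HSN748 replicate 7 or 8). It moved the log2 difference of IRF1 between -0.13 and 0.0051, of MX1 between -0.20 and 0.14 and of TRIM21 between -0.11 and 0.0098. Direction turned, all on the log2 scale, with upper-quartile factors for IRF1 (0.13), IRF3 (0.075), EIF2AK2 (0.017), TRIM21 (0.16) and DTX3L (0.11); with total counts for IRF1 (0.051), TRIM21 (0.077) and DTX3L (0.027); with RLE factors for MX1 (-0.0032); and with reference genes for IRF1 (0.47), IRF3 (0.42), IFIT5 (0.32), ADAR (0.26), EIF2AK2 (0.35), TRIM21 (0.49) and DTX3L (0.44). Among single-gene values that kept their direction, 22 passed only under an alternative and 6 no longer passed. The causes were not tested. Upper-quartile factors, total counts and reference genes also shifted the median of all genes, as given above. Members near 1 CPM are limited by depth.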
